A study of Mus musculus with 12 samples.

Results

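The genes described here encode the subunits of the proteasome, measured in the postnatal cerebellum of Ts1Cje and euploid mice. They were chosen by name: every analysed probe set with 1 gene symbol of the form Psma, Psmb, Psmc, Psmd, Psme or Psmf followed by a digit. This gave 52 probe sets for 41 genes, of 8252 genes that the array covers with a probe set of 1 symbol. Of the 41 genes, 39 encode subunits or bound factors of the complex: 7 core alpha genes, 9 core beta genes, 6 ATPase genes, 14 lid and base genes and 3 activator genes. The other 2, Psmc3ip and Psme3ip1, match the form of the name but encode binding partners, and were kept apart.

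The proteasome is the machine that degrades proteins tagged with ubiquitin. Its core particle is a barrel of stacked rings, in which the outer alpha rings guard the entrance and the inner beta rings carry the proteolytic sites. A regulatory particle caps the barrel, with a base of ATPases that unfold the substrate and a lid that removes ubiquitin, while alternative activator caps open the gate without ubiquitin. Interferon induces an alternative set of catalytic subunits and an activator that favour peptides for display on MHC class I, and in neurons proteasome activity takes part in synapse remodelling and in clearing damaged proteins.

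Ts1Cje mice carry a segmental trisomy of chromosome 16 and are used as a model of Down syndrome, and their euploid counterparts were the controls. RNA from individually frozen cerebella was pooled at postnatal day 0 (P0), day 15 (P15) and day 30 (P30), with 3 cerebella in a pool but 2 in the euploid P30 pool. Each of the 6 pools, 1 for each genotype and stage, was hybridised to 2 Affymetrix arrays, so that a genotype is represented by 1 pool at each stage. A pool hides the spread between animals, and the 2 arrays of a pool measure the spread of hybridisation alone. All 41 genes were found in a RefSeq gene table (GRCm38.p6), and 1 of them, Psmd2, lies on chromosome 16. In the order of genes on that chromosome 0 of the 41 lie between Sod1 and Mx1, the interval that makes up most of the extra segment.

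Values are MAS5 signals, a linear brightness of a probe set in arbitrary units. The 12 arrays had median signals of 30.4 to 36.2, and 3' to 5' signal ratios of 0.841 to 1.07 (GAPDH) and 1.13 to 1.67 (actin). The Ts1Cje P30 pool had the highest actin ratios (1.55 and 1.67, others at most 1.43). The labelled tissue was checked against cell type markers: 5 of 5 tested Purkinje cell markers, 5 of 5 granule cell markers and 4 of 4 oligodendrocyte markers rose from P0 to P30, while 4 of 4 tested markers of dividing cells fell. Over the same interval 3 of 4 tested astrocyte markers rose and 1 fell, 4 of 6 choroid plexus and meningeal markers rose and 1 fell, and 0 of 3 blood markers passed the test. The cerebellum changes its cell makeup over this month, and in bulk tissue fewer cells of a type and less RNA per cell cannot be told apart.

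Of the 52 probe sets, 42 had a mean signal over 12 arrays above the minimum of 20.1 and were tested, among 7453 probe sets in all. They stand for 36 genes: 35 subunit genes (7 core alpha, 8 core beta, 5 ATPase, 12 lid and base and 3 activator genes) and Psme3ip1. The brightest member left out had a mean signal of 19.1 and the dimmest tested one 24.2. The 4 subunit genes with no tested probe set were Psmb9 (mean signal 4.35), Psmc4 (7.87), Psmd2 (11.0) and Psmd10 (19.1), and Psmc3ip, a factor of meiotic recombination, also lay below the minimum with 2.92. Psmb9, an interferon-inducible catalytic subunit, was between 1.90 and 13.2 on the 12 arrays, close to background at every stage. The 2 probe sets of Psme2, the partner of Psme1, carry the symbol of a second locus as well and were not used. Each gene was represented by its brightest probe set, and for the 35 tested subunit genes that probe set had a mean signal of 91.6 (Psmd9) to 1198 (Psma3).

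Promoter sequences were available for 35 of the 41 genes in RefSeq (GRCm38.p6). The 250 bases upstream of the annotated start are shown for 5 genes of the stage comparisons below. They are the 3 genes called lower from P0 to P15 (Psme1, Psmd12, Psmb6), Psme4, which had the lowest adjusted p from P15 to P30, and Psmc5, which rose. All 5 are on the plus strand, at chr14:55578244-55578493 (Psme1), chr11:107479278-107479527 (Psmd12), chr11:70525107-70525356 (Psmb6), chr11:30771525-30771774 (Psme4) and chr11:106255935-106256184 (Psmc5). Each is written 5′ to 3′ and ends at the base before the start, with the letters of a motif match on either strand in capitals.
Psme1: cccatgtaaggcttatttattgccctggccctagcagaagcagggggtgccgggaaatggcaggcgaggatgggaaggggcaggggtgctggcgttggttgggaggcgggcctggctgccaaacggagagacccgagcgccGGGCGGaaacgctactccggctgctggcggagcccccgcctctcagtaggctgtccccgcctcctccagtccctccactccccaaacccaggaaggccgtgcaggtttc
Psmd12: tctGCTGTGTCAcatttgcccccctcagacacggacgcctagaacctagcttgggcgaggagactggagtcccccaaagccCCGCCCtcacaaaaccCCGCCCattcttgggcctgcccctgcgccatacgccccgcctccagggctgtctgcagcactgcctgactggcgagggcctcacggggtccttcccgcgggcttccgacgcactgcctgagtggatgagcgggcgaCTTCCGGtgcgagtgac
Psmb6: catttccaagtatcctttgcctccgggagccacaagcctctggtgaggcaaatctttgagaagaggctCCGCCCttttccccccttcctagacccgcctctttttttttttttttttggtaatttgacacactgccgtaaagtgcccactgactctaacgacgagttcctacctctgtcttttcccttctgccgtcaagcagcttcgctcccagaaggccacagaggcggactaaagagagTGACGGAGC
Psme4: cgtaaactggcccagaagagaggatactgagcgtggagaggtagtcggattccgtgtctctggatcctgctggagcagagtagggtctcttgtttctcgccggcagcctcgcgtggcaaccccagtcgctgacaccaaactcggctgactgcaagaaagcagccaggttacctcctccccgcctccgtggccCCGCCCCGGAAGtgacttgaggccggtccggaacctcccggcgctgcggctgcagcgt
Psmc5: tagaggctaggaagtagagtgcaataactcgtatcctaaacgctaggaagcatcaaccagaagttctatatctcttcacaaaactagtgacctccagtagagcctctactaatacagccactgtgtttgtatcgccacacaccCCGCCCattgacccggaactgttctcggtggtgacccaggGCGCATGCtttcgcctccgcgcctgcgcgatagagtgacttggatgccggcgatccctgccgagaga
The motifs searched were the core of the antioxidant response element (TGACNNNGC), which factors of the Nfe2l1 and Nfe2l2 family bind, and the motifs of NF-Y (CCAAT), ETS factors (CCGGAAG), NRF1 (GCATGCGC) and Sp1 (GGGCGG), each on both strands. Psme1 holds 1 Sp1 match. Psmd12 holds a response element match at its far end, 2 Sp1 matches and, 17 to 11 bases before the start, an ETS match. In Psmb6 the response element match fills the last 9 bases before the start, and there is 1 Sp1 match further up. The Sp1 and ETS matches of Psme4 share a base, 53 bases before the start. Psmc5 holds 1 NRF1 match and 1 Sp1 match.

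Over the 33 subunit genes with a promoter entry, the ETS motif was present in 11 (33.3%), against 7.83% of 27025 genes with an entry of the same length. The Sp1 motif was present in 20 (60.6%), against 35.4%, and the NF-Y motif in 13 (39.4%), against 37.5%. The response element core was present in 5 (15.2%), against 11.5%: Psmb5, Psmb6, Psmc6, Psmd9 and Psmd12. NRF1 matches were found in Psma2 and Psmc5 (6.06%, against 2.56%). Among the 14 genes that fell from P0 to P30 (below), the ETS motif was present in 4 and Sp1 in 10, and among the 15 other tested subunit genes with an entry in 6 and 6. A match is a string of letters, and binding was not measured.

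Across the 3 stages the subunit genes moved mainly downward. Over both genotypes all but Psme1 moved by less than 2-fold on the log2(signal + 4.6) scale. Psmd12 came closest with 1.99-fold from P0 to P30, and in euploid cerebellum alone its fall passed 2-fold (−1.04 on that scale). From P0 to P30, 14 of 35 subunit genes fell and 1 rose (limma over all 7453 probe sets, Benjamini-Hochberg adjusted p under 0.05). Of all tested probe sets 39.0% were called in this comparison, 19.6% lower and 19.4% higher, so that calls of falls made up 40% of the subunit genes against 19.6% of the array. The median difference of the 35 genes was −0.35 on the log2 scale, against 0.036 for all tested probe sets. Of the 35 differences 29 were negative, while 52.5% of all probe sets had positive ones. In 28 of 35 genes the difference was negative in each genotype taken by itself, as for 38.6% of all probe sets. For 15 genes all 4 arrays at P30 lay below all 4 at P0, as for 22.3% of all probe sets. Sizes of the 14 falls ran from −0.43 to −1.81 on the log2(signal + 4.6) scale, on which the change of a dim probe set comes out smaller than it is.

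The earlier interval held fewer calls among these genes than the array at large. From P0 to P15, 3 of 35 subunit genes fell (Psme1, Psmb6 and Psmd12) and 0 rose, where 28.0% of all probe sets were called, 14.4% lower and 13.6% higher. At an unadjusted p under 0.05 there were 9 of 35, against 39.9% of all probe sets. The median of the 35 was −0.21, against −0.033 for all probe sets. Of the 35 differences 30 were negative, while 47.1% of all probe sets had positive ones. From P15 to P30, 0 of 35 were called by limma, where 4.74% of all probe sets were called, 3.13% lower and 1.61% higher. There 6 of 35 had an unadjusted p under 0.05, against 21.6% of all probe sets, the lowest adjusted p was 0.0741 (Psme4), and the median was −0.096 against 0.057. The intervals share pools (P0 or P15 or P30), so their values are given side by side and are not independent of each other.

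These counts depend on few pools. Leaving out the euploid P0 pool left 1 gene lower from P0 to P15 in place of 3, and leaving out the Ts1Cje P15 pool gave 5. For P0 to P30, the 14 became 8 without the euploid P30 pool, 5 without the Ts1Cje P0 pool, 4 without the Ts1Cje P30 pool and 9 without the first euploid P0 array. The Ts1Cje P30 pool is the one with the highest actin ratios, whose part in the calls was not tested.

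**Figure D1:**
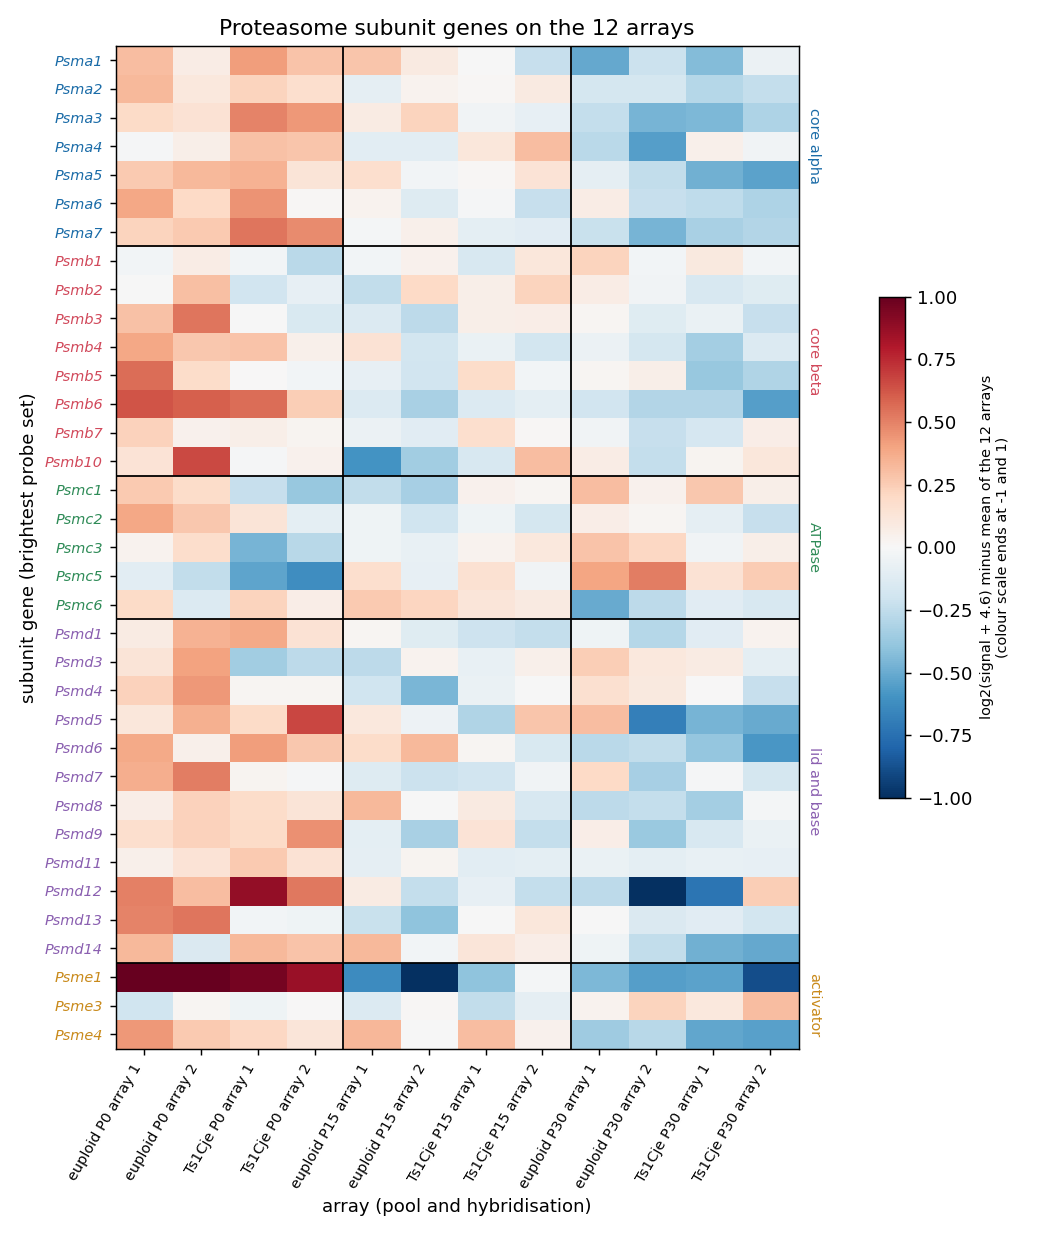
Signals of the 35 tested subunit genes on the 12 arrays. Each row is a gene (its brightest probe set) and each column an array, ordered by stage and genotype, and colour gives log2(signal + 4.6) minus the gene's mean over the 12 arrays, with the scale ending at −1 and 1. Most core alpha rows run from red at P0 to blue at P30, while in Psma4 and Psma6 the arrays of these stages overlap. Psme1 is the most saturated row, and Psmc5 runs from blue at P0 to red at P30.

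The 7 core alpha genes, which form the outer rings and the gate of the barrel, were lower at P30 than at P0 in nearly every case. From P0 to P30, 6 of 7 fell, by 1.34-fold (Psma2) to 1.62-fold (Psma7), and the 7th, Psma4, differed by −0.36 ± 0.13 (limma SE, 6 pools, adjusted p = 0.0669). The group median was −0.58. From P0 to P15 and from P15 to P30 all 7 differences were negative, with medians of −0.24 and −0.28, and 0 of 7 passed the test in either interval. The alpha count rests on particular pools: it was 0 without the Ts1Cje P0 pool, 1 without the Ts1Cje P30 pool, and 3 without the euploid P30 pool or without the first euploid P0 array.

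Psma7 read 495 and 508 on the euploid P0 arrays and 614 and 587 on those of Ts1Cje. At P15 it read 417 and 438 in euploid and 395 and 390 in Ts1Cje cerebellum, and at P30 362 and 305 against 337 and 343. The 4 arrays of each stage lay below all arrays of the stage before. The difference from P0 to P30 was −0.70 ± 0.15 (limma SE, adjusted p = 0.00657), a 1.62-fold fall, and it missed the threshold without the Ts1Cje P0 pool (adjusted p = 0.0605) and without the Ts1Cje P30 pool (0.0612).

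Psma3 read 1342 and 1299 in euploid and 1650 and 1580 in Ts1Cje cerebellum at P0. It read 1240 and 1370 against 1145 and 1106 at P15, and 993 and 849 against 858 and 946 at P30. The P30 arrays lay below all others, while the euploid P15 arrays overlapped those of P0. The difference from P0 to P30 was −0.68 ± 0.15 (adjusted p = 0.00724), a 1.60-fold fall, with an adjusted p of 0.0783 without the Ts1Cje P0 pool. Its probe set name carries the suffix that marks probes shared with other transcripts, as do those of Psmb4, Psmb7, Psmc3 and Psmd12, so that signal from a related sequence is possible there and was not tested. Psma1 (−0.58 ± 0.18, adjusted p = 0.0334), Psma5 (−0.60 ± 0.15, 0.0149), Psma6 (−0.44 ± 0.13, 0.0282) and Psma2 (−0.43 ± 0.13, 0.0311) were the other alpha genes that fell.

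Of the 8 tested core beta genes, 7 had negative differences from P0 to P30, and 2 of them, Psmb6 and Psmb4, fell. The other 6 genes had differences of −0.33 to 0.13. The group median was −0.24. The count was 1, Psmb6, without any of 4 pools (both P0 and both P30 pools), and also without the first euploid P0, Ts1Cje P0 or Ts1Cje P30 array. Psmb6, the subunit with caspase-like activity, read 503 and 492 in euploid and 480 and 386 in Ts1Cje cerebellum at P0. At P15 it read 295 and 258 against 295 and 302, and at P30 283 and 263 against 264 and 220. Every array at P15 and P30 lay below every array at P0. The difference was −0.68 ± 0.15 from P0 to P15 (adjusted p = 0.0109), a 1.60-fold fall, and −0.84 ± 0.15 from P0 to P30 (adjusted p = 0.0027), a 1.79-fold fall. The fall to P30 held without any pool. The fall to P15 missed the threshold without the euploid P0 pool (difference of −0.59) or the euploid P15 pool (−0.53). With the second hybridisations alone the fall to P15 had an adjusted p of 0.0611.

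The other constitutive catalytic subunits did not pass the test. Psmb5, with chymotrypsin-like activity, read 630 and 482 in euploid and 427 and 418 in Ts1Cje cerebellum at P0, 401 and 371 against 484 and 416 at P15, and 430 and 443 against 325 and 344 at P30. Its arrays overlapped between stages, and the difference from P0 to P30 was −0.33 ± 0.18 (adjusted p = 0.177). The dimmer tested Psmb5 probe set had the opposite sign, with 0.12 ± 0.17 (adjusted p = 0.592). Psmb7, with trypsin-like activity, differed by −0.18 ± 0.14 (adjusted p = 0.353), with signals between 334 and 462 on all arrays. Psmb4, a structural subunit of the beta ring, fell by 0.43 on the log2 scale with an SE of 0.13 (adjusted p = 0.0258). For Psmb1, another structural subunit, the tested probe sets disagreed. The brighter one differed by 0.13 ± 0.13 (adjusted p = 0.464). The dimmer one fell by 0.57 with an SE of 0.15 (adjusted p = 0.0172). That call was lost without the euploid P30, Ts1Cje P0 or Ts1Cje P30 pool or without the first euploid P0 array. It was also lost with the second hybridisations alone (adjusted p = 0.189).

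Psmb10, which replaces Psmb7 in interferon-exposed cells, read 150 and 219 in euploid and 135 and 141 in Ts1Cje cerebellum at P0. It read 88.7 and 107 against 122 and 170 at P15, and 144 and 115 against 139 and 148 at P30. Stages overlapped, and the difference from P0 to P30 was −0.21 ± 0.22 (adjusted p = 0.482), which turned to 0.15 without the euploid P0 pool.

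The ATPase genes, whose products form the unfolding ring of the base, included the 1 subunit gene that rose. Psmc5 read 241 and 218 in euploid and 179 and 167 in Ts1Cje cerebellum at P0, 293 and 245 against 289 and 253 at P15, and 343 and 371 against 287 and 311 at P30. The lowest P15 and P30 arrays lay above the highest P0 array. The difference from P0 to P30 was 0.70 ± 0.16 (adjusted p = 0.00856), a 1.62-fold rise, and that from P0 to P15 was 0.43 ± 0.16 (adjusted p = 0.0793). The rise missed the threshold without the euploid P30 pool (adjusted p = 0.0782), the Ts1Cje P0 pool (0.0677) or the Ts1Cje P30 pool (0.0557). Of the other ATPase genes Psmc1 and Psmc3 had positive differences from P0 to P30 (0.21 ± 0.20 and 0.26 ± 0.18), Psmc2 and Psmc6 negative ones (−0.23 ± 0.15 and −0.35 ± 0.14), and 0 of these 4 passed the test. The dimmer probe sets of Psmc3 gave 0.06 ± 0.16 and −0.40 ± 0.17. An ATPase gene was called lower, 1 in place of 0, without either P15 pool or without the second euploid P0 array. The group median was 0.21, the only positive median among the 5 groups in this comparison. By genotype it was −0.048 in euploid cerebellum (2 of 5 positive) and 0.38 in Ts1Cje cerebellum (3 of 5 positive). Over all 7 tested ATPase probe sets it was 0.063.

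Of the 12 tested lid and base genes, 4 fell from P0 to P30 and 11 had negative differences, with a median of −0.36. Psmd12, a scaffold subunit of the lid, changed most. It read 227 and 198 in euploid and 295 and 231 in Ts1Cje cerebellum at P0, 168 and 134 against 150 and 134 at P15, and 131 and 76.7 against 93.7 and 188 at P30. All P15 and P30 arrays lay below all P0 arrays, while the arrays of the same P30 pool differed by up to 2.01-fold. The difference was −0.67 ± 0.17 from P0 to P15 (adjusted p = 0.0204), a 1.59-fold fall, and −0.99 ± 0.17 from P0 to P30 (adjusted p = 0.00224), a 1.99-fold fall. The first of these calls was lost without the euploid P0 pool (adjusted p = 0.0501), the Ts1Cje P0 pool (0.101) or the Ts1Cje P15 pool (0.124), and also without the second euploid P15 array (0.0558) or the first Ts1Cje P30 array (0.0621). The call from P0 to P30 held without any pool or array. With the second hybridisations alone both calls were missed (adjusted p = 0.153 to P15 and 0.075 to P30).

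The other 3 that fell differ in role. Psmd14, the deubiquitinase of the lid, fell by 0.52 on the log2 scale with an SE of 0.17 (adjusted p = 0.0436), from 196 to 274 at P0 to 151 to 210 at P30. Psmd6, a lid subunit, read 488 to 629 at P0 and 312 to 397 at P30 without overlap, a fall of 0.65 with an SE of 0.16 (adjusted p = 0.011). Psmd5, a chaperone that assembles the base and is not part of the finished particle, fell by 0.67 with an SE of 0.17 (adjusted p = 0.015), although 1 euploid P30 array (210) lay within the P0 range of 183 to 270. The lid and base count was 2 without the second euploid P30 array or without the Ts1Cje P0 pool, and 1 without the Ts1Cje P30 pool. Psmd4, the ubiquitin receptor of the base, Psmd1, its scaffold, and the lid subunits Psmd3, Psmd7, Psmd8, Psmd11 and Psmd13 did not pass the test, with differences of −0.37 (Psmd8) to 0.10 (Psmd3). Psmd9, an assembly chaperone, had a difference of −0.39 ± 0.16 (adjusted p = 0.0826).

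**Figure D2:**
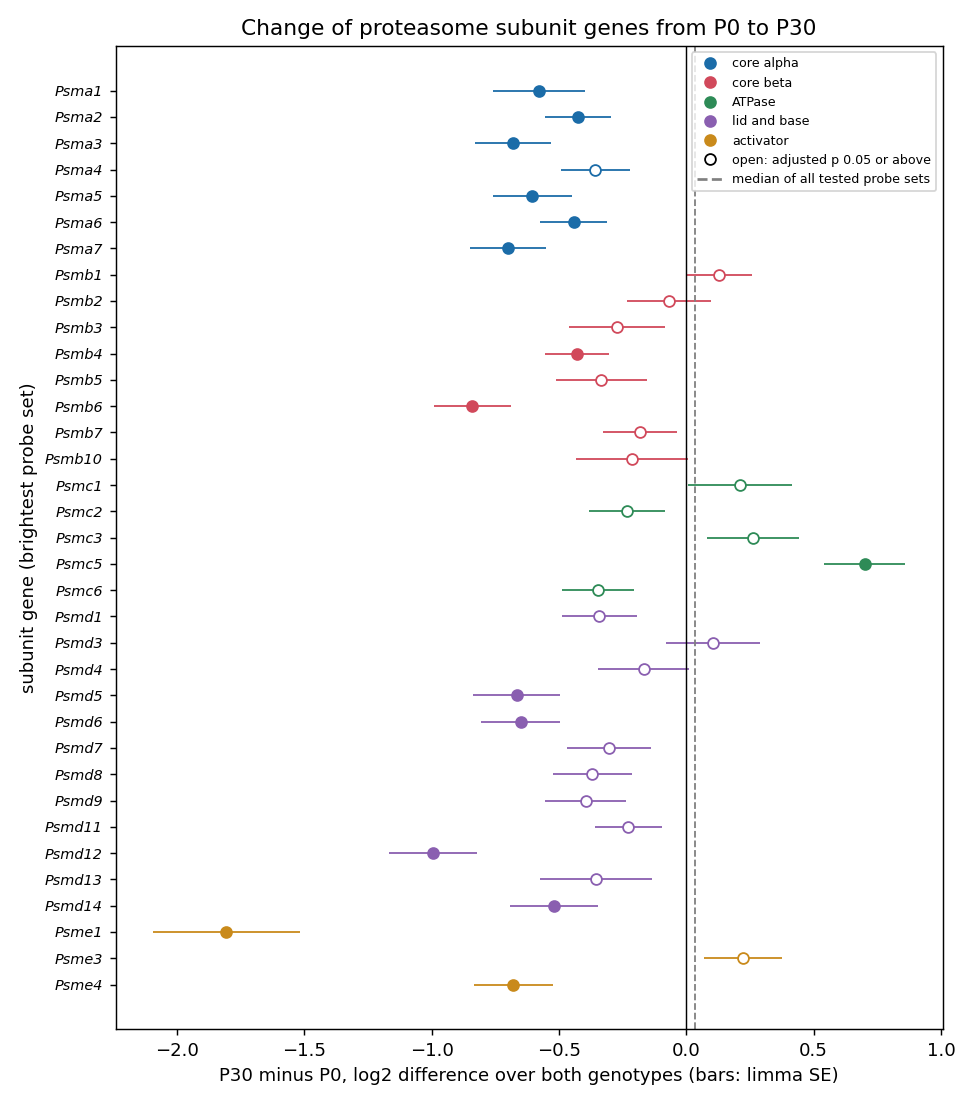
Difference between P30 and P0 for each tested subunit gene. Points give the log2 difference over both genotypes and bars the limma SE, filled points have an adjusted p under 0.05, and the dashed line is the median of all tested probe sets (0.036). All 7 core alpha points lie left of 0, Psme1 lies farthest left at −1.81, and Psmc5 is the filled point on the right.

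The activator genes held the most marked change of all subunits. Psme1, the alpha subunit of the interferon-inducible cap that opens the core for peptide production, read 233 and 260 in euploid and 168 and 158 in Ts1Cje cerebellum at P0. At P15 it read 53.0 and 31.2 in euploid and 62.9 and 83.2 in Ts1Cje cerebellum, and at P30 60.9 and 56.2 against 56.9 and 43.7. The highest of the 8 later arrays was about 1.89-fold below the lowest P0 array, so the stages did not overlap. The interval after P15 added no called change: the difference was −1.79 ± 0.29 from P0 to P15 (adjusted p = 0.00238), 3.47-fold, −1.81 ± 0.29 from P0 to P30 (adjusted p = 0.00149), 3.49-fold, and −0.01 ± 0.29 from P15 to P30 (adjusted p = 0.985). By genotype the last difference was 0.47 in euploid and −0.50 in Ts1Cje cerebellum, each without overlap between the P15 and P30 arrays. The value over both genotypes averages these opposite moves. Both falls from P0 held without any pool. A second Psme1 probe set, with a mean signal of 1.28, was too dim to use.

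Psme4, the large nuclear cap of the core, changed later. It read 208 and 185 in euploid and 178 and 167 in Ts1Cje cerebellum at P0, 194 and 153 against 191 and 158 at P15, and 119 and 126 against 105 and 104 at P30. The P0 and P15 arrays overlapped, and all 4 P30 arrays lay below them. The difference was −0.09 ± 0.16 from P0 to P15 (adjusted p = 0.72), −0.59 ± 0.16 from P15 to P30 (adjusted p = 0.0741) and −0.68 ± 0.16 from P0 to P30 (adjusted p = 0.00876), the last of them a 1.60-fold fall. That call missed the threshold without the euploid P30 pool (adjusted p = 0.051) or the Ts1Cje P30 pool (0.126). With the second hybridisations alone the Psme4 call was missed as well (adjusted p = 0.0564). Psme3, the nuclear homologue of Psme1, had a difference of 0.22 ± 0.15 from P0 to P30 (adjusted p = 0.289). All 4 P30 arrays of Psme3 (147 to 179) lay above all 4 P0 arrays (124 to 146). Psme3ip1, a binding partner of Psme3, stayed between 139 and 170 on the 12 arrays.

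Psme1 is expressed at high levels in immune cells, and the marker lists are given beside it. Of 9 tested microglial markers, 0 passed the test from P0 to P15, and 1 (Ctss) rose from P0 to P30. The summed signal of 10 microglial markers was 733 to 824 in euploid and 585 to 652 in Ts1Cje cerebellum at P0, 660 to 668 against 844 to 868 at P15, and 873 to 897 against 919 to 1007 at P30. Aif1 was below the minimum signal, with a mean of 4.36. Of 6 tested endothelial markers, 2 fell from P0 to P15, and from P0 to P30 2 fell and 1 rose, with a summed signal of 492 to 527 in euploid and 593 to 613 in Ts1Cje cerebellum at P0, 484 to 515 against 519 to 553 at P15, and 420 to 443 against 519 to 540 at P30. The interferon response list had 2 tested genes, 0 called from P0 to P15 and 1 (Isg15) higher from P0 to P30. Its summed signal over 7 genes was 109 to 146 on the P0 and P15 arrays and 211 to 247 on those of P30. The part of these cells and of interferon in the Psme1 result was not tested.

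**Figure D3:**
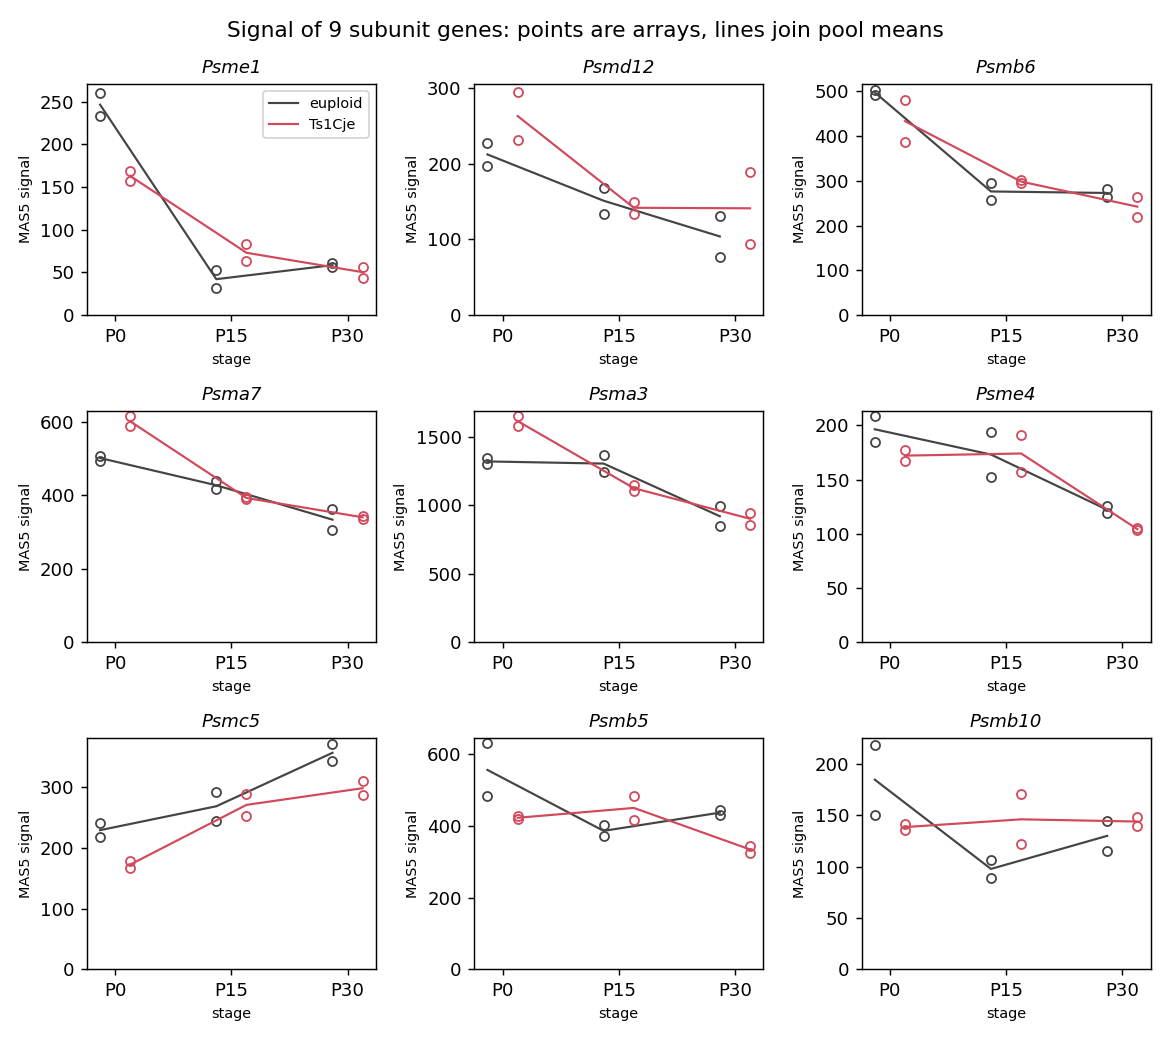
MAS5 signal of 9 subunit genes by stage. Points are arrays, 2 for each pool, lines join pool means, grey is euploid and red Ts1Cje, and each vertical axis starts at 0. Psme1 falls between P0 and P15, and after it rises in euploid and falls in Ts1Cje cerebellum. Psme4 is lower at P30, Psmc5 runs upward, and Psmb5 and Psmb10 cross between genotypes.

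Other genes of the pathway moved in several directions. Of 6 tested assembly chaperones, which build the core and the regulatory particle, 1 fell from P0 to P30 and 0 rose: Ecpas, an adaptor that binds the assembled particle, by 0.75 on the log2 scale with an SE of 0.16 (adjusted p = 0.00625). Of 11 tested ubiquitin receptors, deubiquitinases and regulators, 3 rose and 4 fell from P0 to P30, and 2 rose and 2 fell from P0 to P15. The largest fall was that of Usp14, a deubiquitinase of the regulatory particle, with −1.08 ± 0.15, and the largest rise that of Nfe2l2, an activator of antioxidant response genes, with 1.42 ± 0.19. Its relative Nfe2l1, which drives proteasome genes when proteasome activity is low, rose by 0.68 ± 0.18. Of 2 tested genes of the ubiquitin and E1 list, 1 fell: Uchl1, a neuronal ubiquitin hydrolase, by 2.03 with an SE of 0.25. Of 5 tested genes of the MHC class I peptide pathway, 4 rose from P0 to P30 and 0 fell, led by H2-K1, a class I heavy chain, with 1.58 ± 0.15, and the summed signal of the list was 501 to 545 at P0 and 957 to 1280 at P30. Psme1, whose product serves the same pathway, fell over this interval.

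The falls also ran beside the markers of dividing cells. The summed signal of 7 such markers was 424 to 501 in euploid and 561 to 611 in Ts1Cje cerebellum at P0, 316 to 347 against 259 to 352 at P15, and 195 to 248 against 199 to 234 at P30. All 4 tested markers (Cdk1, Mki67, Mcm2 and Pcna) fell from P0 to P30, and Atoh1, which marks granule cell progenitors, was near background with a mean of 2.52. Their part in the fall of the subunit genes was not tested.

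The genotype comparison asked whether proteasome genes differ in level between Ts1Cje and euploid cerebellum. Over the 3 stages 0 of 35 subunit genes were called by limma, as were 0% of the 7453 probe sets, and 1 of 35 against 2.91% of all probe sets had an unadjusted p under 0.05. The median difference, Ts1Cje minus euploid, was −0.075 on the log2 scale, and 25 of 35 were negative, with standard errors of 0.10 to 0.24. Over all tested probe sets the median was −0.0011, and 49.6% of differences were positive. Permuting the pools within stages cannot give a p below 0.25 in this design.

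The lowest p belonged to Psma4, a core alpha subunit. It read 503 and 528 in euploid and 624 and 616 in Ts1Cje cerebellum at P0, 472 and 471 against 548 and 630 at P15, and 420 and 345 against 525 and 494 at P30. It was the 1 subunit gene whose brightest probe set was higher in Ts1Cje at all 3 stages without overlap between arrays. The difference was 0.33 ± 0.11 (adjusted p = 1 by limma). Next on the higher side were Psmd12 (0.20 ± 0.14, higher in 2 of 3 stages) and Psmd9 (0.11 ± 0.13, higher in 3 of 3). On the lower side were Psmc5 (−0.21 ± 0.13, lower in 2 of 3), Psmd3 (−0.22 ± 0.15, lower in 2 of 3) and Psmc2 (−0.17 ± 0.12, lower in 2 of 3), each with an adjusted p of 1. The difference of Psmd12 turned negative when the first hybridisations were used alone.

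The probe sets of Psmb5 disagreed between genotypes, a point singled out after the values were seen. The brighter one, whose name marks probes shared by related transcripts, differed by −0.38 at P0, 0.22 at P15 and −0.38 at P30. The dimmer one read 52.9 and 66.4 in euploid and 80.1 and 99.4 in Ts1Cje cerebellum at P0, 44.3 and 69.5 against 76.1 and 77.0 at P15, and 74.1 and 68.3 against 94.5 and 84.7 at P30. It was higher in Ts1Cje at all 3 stages without overlap. It differed by 0.43 ± 0.14 over the stages (adjusted p = 1 by limma), so no direction is given for Psmb5.

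Within a stage there is 1 pool of each genotype and no test, and the values follow as a description. At P0, for 15 of 35 (42.9%) both Ts1Cje arrays lay below both euploid arrays, against 21.9% of all tested probe sets, and for 5 they lay above, against 22.4%. The 4 ATPase genes Psmc1, Psmc2, Psmc3 and Psmc5, 5 of 8 core beta genes, 4 of 12 lid and base genes and 2 of 3 activator genes made up the 15. Of the core alpha genes 3 of 7 were higher without overlap (Psma3, Psma4 and Psma7) and 0 lower, and of the lid and base genes 2 of 12 were higher. By the brightest probe sets all 8 core beta differences were negative at P0, with a median of −0.25, while 52.4% of all tested probe sets had positive ones. Over all 10 tested core beta probe sets 2 were positive and the median was −0.19. These were the dimmer ones of Psmb1 (0.15) and Psmb5 (0.55), both higher in Ts1Cje without overlap. The ATPase median was −0.40, while the alpha median was 0.16 and that of lid and base genes 0.078, with 8 of 12 positive.

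At P15 the counts lay near those of the array. Without overlap 10 of 35 (28.6%) were higher in Ts1Cje, against 21.0% of all probe sets, and 7 (20%) lower, against 18.5%, and the median of the 35 was 0.014, against 0.0057 for all. Among core beta genes 6 of 8 differences were positive, with a median of 0.17. In all, 8 genes (22.9%) were lower at P0 and higher at P15 without overlap, as were 8.36% of all probe sets, and 3 (8.57%) were higher and then lower, as were 6.84%. The 8 were Psmb3, Psmb5, Psmb10, Psmc1, Psmc3, Psmd4, Psmd13 and Psme1, each by its brightest probe set. The dimmer tested probe set of Psmb5 was higher in Ts1Cje at both stages without overlap, and those of Psmc3 overlapped at P15. At P30, 13 of 35 were lower in Ts1Cje, against 19.8% of all probe sets, and 2 higher (Psma4 and Psmc6), against 19.6%. The same sign at all 3 stages was seen in 5 of 35 genes, and in 20.8% of all probe sets.

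Leaving out 1 array of a stage loosens the rule to 1 array against 2, so that counts can only stay or grow, and they are no check of these values. Under that looser rule all probe sets were at 33.4% to 39.6% higher and 31.7% to 40% lower at P0, 33.7% to 36.7% and 28.8% to 37.2% at P15, and 32.7% to 36.8% and 32.8% to 36.5% at P30. The subunit genes were at 20% to 34.3% higher and 42.9% to 57.1% lower at P0, 31.4% to 54.3% and 22.9% to 45.7% at P15, and 5.71% to 40% and 37.1% to 74.3% at P30. At P15, 19 genes were higher without the first euploid array and 16 lower without the second. Blood markers differed between the same pools: the summed signal of 3 globin and erythroid genes was 4498 to 4914 in euploid and 3126 to 3423 in Ts1Cje cerebellum at P0, 6385 to 8051 against 2535 to 2977 at P15, and 4524 to 4929 against 2555 to 2880 at P30. The summed signal of microglial markers, given above, was lower in Ts1Cje at P0 and higher at P15, as were the brightest probe sets of all 8 subunit genes listed above. Not every microglial marker did so. The Cx3cr1 arrays overlapped between genotypes at both stages, those of Ctss at P0 and those of C1qc at P15. A dimmer C1qb probe set was higher in Ts1Cje at P0 without overlap, as was Aif1, which lay below the minimum signal. The GAPDH ratios of the Ts1Cje P0 arrays (1.07 and 0.987) were above those of the euploid P0 arrays (0.841 and 0.862). The part of either cell type or of these ratios was not tested.

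**Figure D4:**
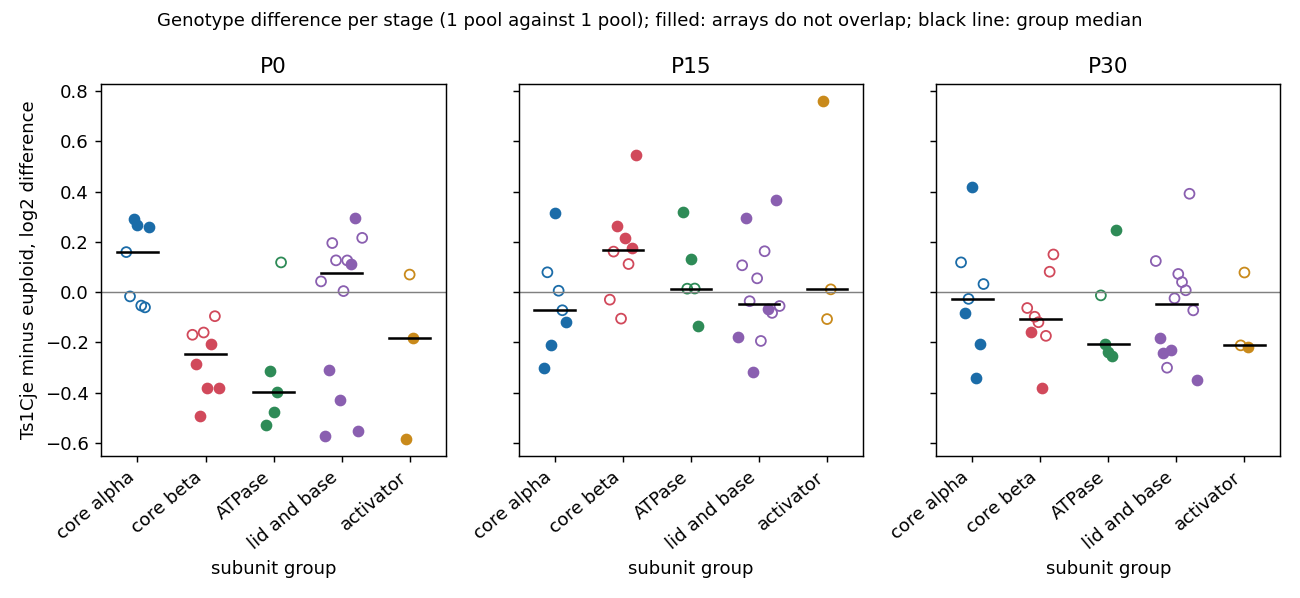
Difference between genotypes at each stage for the tested subunit genes, by group. The vertical axis is Ts1Cje minus euploid on the log2 scale, each point is a gene, filled points have arrays that do not overlap, and black lines are group medians. The core beta points all lie below 0 at P0 and mostly above 0 at P15.

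Psme1 had the widest swing between genotypes. As the readings above show, it was lower in Ts1Cje at P0 by 0.58 on the log2 scale, higher at P15 with a difference of 0.76, and overlapped at P30 (−0.21). Taken by genotype, its difference from P0 to P15 was −2.46 in euploid and −1.12 in Ts1Cje cerebellum. For core beta genes the median difference from P0 to P15 was −0.43 in euploid cerebellum, negative in 8 of 8, and 0.071 in Ts1Cje cerebellum, positive in 6 of 8. Whether these differ between genotypes was not tested, because each rests on 1 pool.

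A steady change of the genotype difference with postnatal day was fitted with 1 residual degree of freedom. By limma 0 of 35 subunit genes were called for it, as were 0% of all probe sets. With so few degrees of freedom, the lack of calls does not show that the difference stayed the same. At an unadjusted p under 0.05 there were also 0 of 35 and 2.59% of all probe sets. The smallest p-values on the positive side, where Ts1Cje gained on euploid over 30 days, were those of Psmc1 (0.52 ± 0.42 over 30 days), Psmb10 (0.53 ± 0.44) and Psmd7 (0.40 ± 0.37). On the negative side they were those of Psmd14 (−0.56 ± 0.37), Psmd5 (−0.50 ± 0.37) and Psmd6 (−0.35 ± 0.36). All 6 had adjusted p-values of 1 and unadjusted p-values of 0.153 to 0.348. Psmg1, an assembly chaperone, lies between Sod1 and Mx1 on chromosome 16: it read 59.3 and 79.5 in euploid and 129 and 104 in Ts1Cje cerebellum at P0, and differed by 0.58 ± 0.14 over the stages (adjusted p = 0.943), higher in 3 of 3.

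How the subunit genes moved relative to each other was described by the Pearson correlation of their log2 values over the 6 pools. These points share the stages and the scaling of each array, so a common course through development appears as a high value. The core alpha genes were the most alike, with a median r of 0.834 over 21 pairs, against 0.488 over all 595 pairs of subunit genes. Core beta genes had a median of 0.611 (28 pairs) and lid and base genes 0.57 (66 pairs). The ATPase genes had a median of 0.0419 among themselves (10 pairs) and −0.359 with core alpha genes (35 pairs). The 3 pairs of activator genes had the lowest median within a group, −0.385, with a range of −0.926 to 0.6. Pairs within the other groups also ranged widely, from 0.303 to 0.974 for core alpha and from −0.5 to 0.963 for core beta genes.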

How the data were processed

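The samples were 6 pools of mouse cerebellar RNA, each hybridised to 2 arrays. The deposited values of 12488 probe sets are signal intensities that the authors made with MAS5, per the submitters' processing notes. Its version is not given in the sources used here. Signal over background limits precision, and no detection call was used.

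Intensities were transformed to log2(signal + 4.6), with 4.6 being the 20th percentile of all values. The 66 control probe sets and those with a mean signal below the 40th percentile (20.1) were left out. The log2 values of both arrays of a pool were averaged, which makes the pool the replicate. The additive model of genotype and stage, and another with genotype by day, used lmFit and eBayes (with trend) of limma 3.58.1 under R 4.3.3. All tests were two-sided, with Benjamini-Hochberg adjustment over 7453 probe sets and a threshold of 0.05. The additive model left 2 residual degrees of freedom, and eBayes added a prior of 6.39 drawn from all tested probe sets. For genotype by day these were 1 and 9.51. With 1 pool per genotype and stage, the p-values measure departures of these pools from the fitted model, and not a spread between replicate pools. A gene was represented by its brightest probe set, and symbols came from the platform annotation. Genes were named with array values by a rule: the 6 largest called falls and rises per stage comparison with 1 direction in both genotypes, the 3 higher and 3 lower genes with the smallest p per genotype model, the catalytic and interferon-inducible subunits, and genes whose probe sets differ in sign where 1 is called. A further gene that matches the form of the name was not analysed here. The members, gene lists and tests were chosen with earlier results of these data known. Alternatives were other pseudocounts, filters and scaling, no trend, each hybridisation alone, the hybridisation number as a block, and leaving out each array and pool. Scripts were tested on simulated data. Figures used matplotlib 3.10.9 in python 3.11.15.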

Additional observations from a re-analysis of the deposited data

Results flagged for a closer look

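For 12 subunit genes the Ts1Cje and euploid arrays did not overlap at 2 or more stages and the difference changed sign between them, which is 34.3% of the 35 tested, against 24.2% of all tested probe sets. Each stage has 1 pool of a genotype, so these differences between stages were not tested. Values are Ts1Cje minus euploid on the log2 scale, by the brightest probe set of each gene. The dimmer tested probe sets of Psmb5, Psmc3 and Psmd11 did not change sign between P0 and P15 without overlap.

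In the core, Psma3 differed by 0.29 at P0 and −0.21 at P15, and Psma7 by 0.26 and −0.12. Psmb3 differed by −0.49 at P0 and 0.26 at P15. Psmb10 differed by −0.38 at P0 and 0.54 at P15. Psmb5 differed by −0.38 at P0, 0.22 at P15 and −0.38 at P30, by its brightest probe set.

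Among the ATPases, Psmc1 differed by −0.53 at P0 and 0.32 at P15. Psmc3 differed by −0.48 at P0, 0.13 at P15 and −0.24 at P30. Psmc6 differed by −0.13 at P15 and 0.25 at P30.

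In the lid and base, Psmd11 differed by 0.11 at P0 and −0.07 at P15, and Psmd13 by −0.55 and 0.37. Psmd4 differed by −0.31 at P0, 0.29 at P15 and −0.24 at P30. Psme1, the activator subunit, differed by −0.58 at P0 and 0.76 at P15, the widest change of sign among the 12.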

How the results depend on the processing

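Calls over all genotype settings stayed at 0 of the tested subunit probe sets, for the genotype comparison and for genotype by day, which could not be fitted without a pool. Other pseudocounts, filters, quantile scaling and eBayes without the trend kept the stage counts over all subunits within 1.5 times their values, although quantile scaling and eBayes without the trend each called 1 core beta gene lower from P0 to P30 in place of 2, and with no filter the genes higher in Ts1Cje at P30 without overlap were 4 in place of 2. Hybridisation numbers did not pair the samples: over 15 pairs of pools the correlation of array deviations was −0.124 to 0.354 with a median of 0.0707, over 0.1 in 7. With the hybridisation number as a replicate block on 12 arrays (pool as random block, consensus correlation 0.153), 9 probe sets were called from P0 to P15 in place of 3, 8 genes lower, and 5 probe sets from P15 to P30 in place of 0. The second hybridisation alone gave 1 probe set from P0 to P15 (1 gene lower) and 7 in place of 16 from P0 to P30 (6 genes lower). The first alone gave 1 from P15 to P30. Leaving out 1 array gave 2 to 4 probe sets and genes from P0 to P15, and 10 to 17 probe sets and 9 to 15 genes lower from P0 to P30. Leaving out 1 pool gave 1 to 5 probe sets and genes from P0 to P15, and 4 to 18 probe sets, 4 to 16 genes lower and 0 to 1 higher from P0 to P30. Within-stage counts without 1 array, which loosens the rule and can only raise them, were 5 to 12 higher and 15 to 20 lower at P0, 10 to 19 and 7 to 16 at P15, and 2 to 14 and 13 to 26 at P30. The difference of Psmb10 from P0 to P30 ran from −0.57 to 0.15 with 1 pool left out, the latter without the euploid P0 pool, and the genotype difference of Psmd12 turned to −0.085 with the first hybridisation alone. The cause was not tested.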
